A study of Arabidopsis thaliana with 72 samples.

Results

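ZAT10, CML38 and AT1G76640 are 3 Arabidopsis genes known for rapid changes of transcript level under stress, and they were followed here through every group of a hormone treatment series. They were taken by name, with earlier results of these data known, from the 13356 genes named by a probe set that names 1 gene. Each is measured by 1 of the 22810 probe sets of the ATH1 array. ZAT10 (AT1G27730) is also called STZ. CML38 is AT1G76650, and AT1G76640 has the synonym CML39 in the RefSeq gene table of assembly TAIR10.1. All 3 lie on chromosome 1. AT1G76640 and CML38 are neighbours with 0 protein-coding genes between them in that table, and how far their probe sets could detect each other's transcript was not tested.

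Whole 7 day old seedlings, grown at 22 °C, were measured on 72 arrays in 36 groups of 2. In Col-0, the wild type, the treatments were methyl jasmonate (MJ), abscisic acid (ABA) and the ethylene precursor ACC at 10 µM, the auxin indole-3-acetic acid (IAA), the cytokinin zeatin and gibberellin A3 (GA3) at 1 µM, and brassinolide (BL, a brassinosteroid) at 10 nM, each beside mock treatment. The gibberellin-deficient mutant ga1-5 received GA3 or mock, and the brassinosteroid-deficient mutant det2-1 received BL or mock. Every treatment was sampled at 30 min, 1 h and 3 h. Whether both arrays of a group are from separate cultures is not given in the labels; p-values therefore reflect the spread between arrays, possibly technical only. Arrays of one genotype and one time carry one code in the labels, from A1 to A9, here called a set. Set therefore cannot be told apart from genotype or from time. Treated and mock arrays of one time share a set, and all hormones of one time in Col-0 share the same 2 mock arrays.

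ZAT10 encodes a zinc finger transcription factor of the C2H2 type that acts mainly as a repressor and is induced by cold, salt, drought and wounding. CML38 and AT1G76640 encode calmodulin-like proteins, a family of calcium-binding proteins through which plant cells read changes of calcium. Jasmonates are signals of wounding and defence. The active conjugate is bound by the receptor COI1, which leads to the breakdown of JAZ repressors and frees transcription factors such as MYC2.

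Values are MAS5 signals scaled so that every array has the same trimmed mean. A change is the difference of log2(signal + 54.6), and a fold is taken from that difference, so it understates the change where signals are low. Across probe sets, the 2 arrays of a group correlated at 0.936 to 0.979. One array, IAA at 30 min replicate 2 in Col-0, held 2 stretches of impossible intensities over 1973 probe sets, none of them of the 3 genes. In the longer stretch 1685 of 1700 values were impossible, and in the shorter all 273. In whole seedlings, a change in the number of cells that express a gene and a change in RNA per cell cannot be told apart. Of 7 photosynthesis genes and 3 root genes with a probe set that served as tissue markers, at least 6 and all 3 lay over the 40th percentile of signals on every array.

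MJ raised all 3 genes. AT1G76640 rose to 2251 to 6980 on the MJ arrays, against 19.97 to 195 on the mock arrays, which are too dim for an exact fold. Depending on the pseudocount, its fold at 1 h lay between 20.8 and 160, and its rise passed at each time. ZAT10 rose 3.90-fold, 8.03-fold and 4.06-fold at the same times. CML38 rose 3.63-fold at 1 h and 6.42-fold at 3 h as fitted, from mock signals that were also low. Outside MJ, only ZAT10 passed the test against mock, under IAA at 30 min and under ABA at 3 h. Of the 81 tests of hormone against mock, 27 for each gene, 10 passed at an adjusted p of 0.05 and all were rises. Among all tested probe sets, 1.4%, 3.5% and 3.87% were called as risen under MJ at 30 min, 1 h and 3 h. The share was 0.475% under IAA at 30 min and 10.1% under ABA at 3 h. The 3 genes were chosen with earlier results of these data known, so the count describes them and is no test against these shares.

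**Figure D1:**
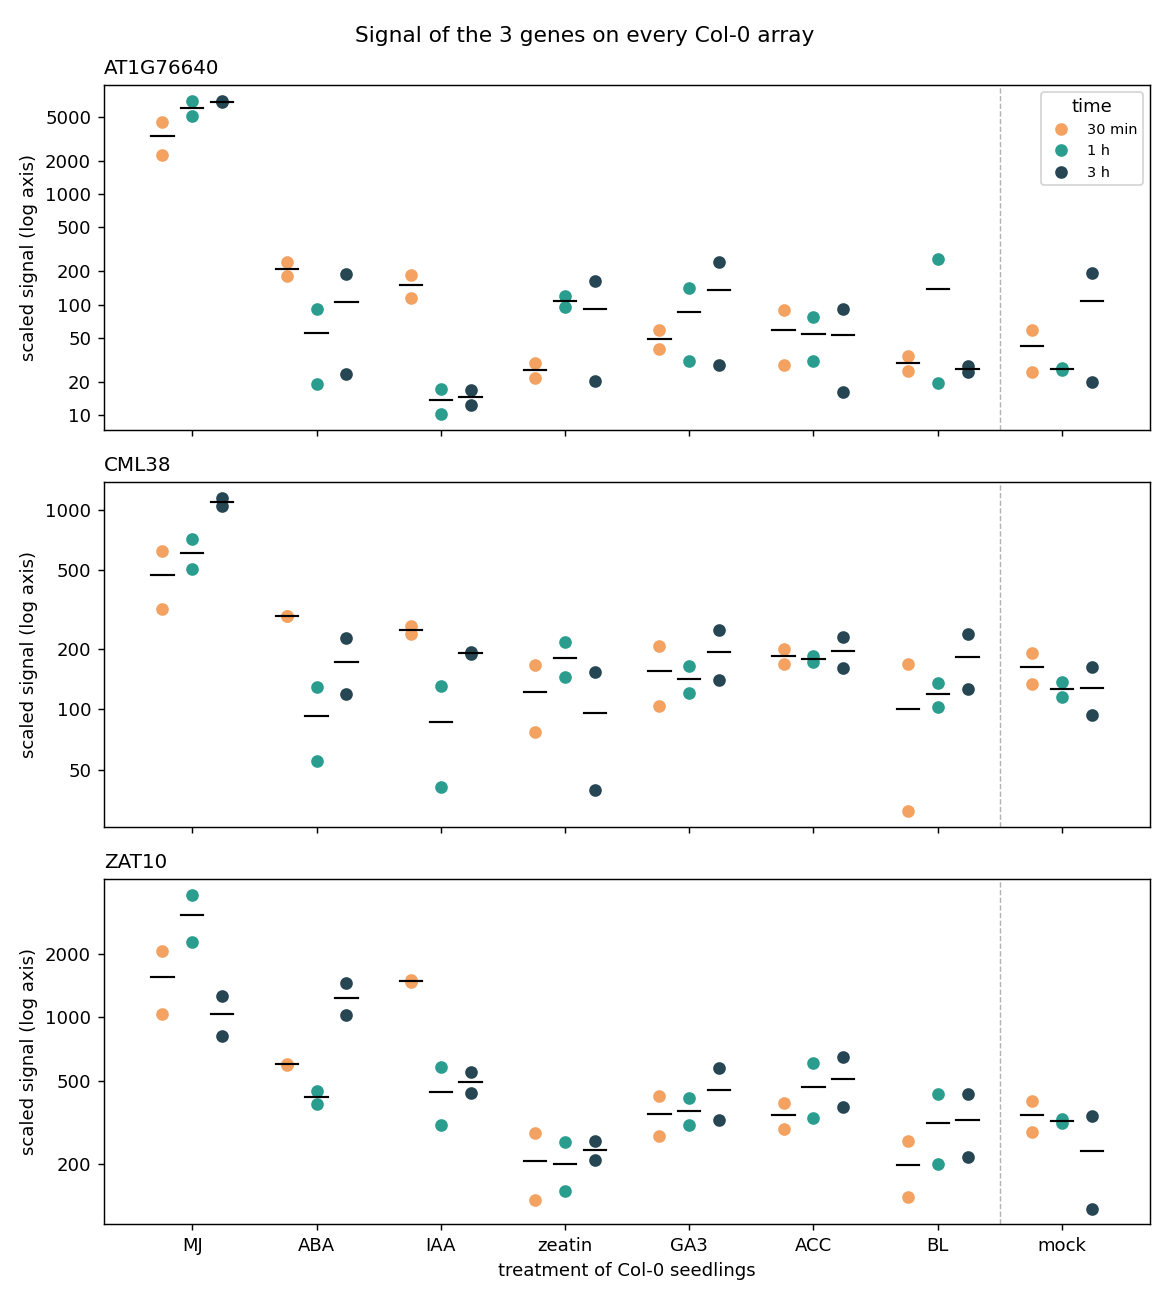
Scaled signal (log axis) of AT1G76640, CML38 and ZAT10 on each of the 48 Col-0 arrays, by treatment and time, with mock at the right. Points are arrays and bars are means of 2 arrays. The 6 MJ arrays of AT1G76640 lie between 2251 and 6980, while its other 42 Col-0 arrays reach 256 at most.

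AT1G76640, a calmodulin-like gene, had bright signals under MJ and dim ones in mock seedlings. Under MJ its scaled signal was 4432 and 2251 at 30 min, against 24.8 and 59.4 in mock seedlings. At 1 h it was 6980 and 5065 under MJ, against 26.99 and 25.7 in mock. At 3 h it was 6881 and 6816 under MJ, against 19.97 and 195 in mock. The MJ arrays lay above the mock arrays at every time, with no overlap. With 2 arrays a group, a lack of overlap alone is weak evidence. Its share over all probe sets was not counted, here or for the other separations of arrays given below. The log2 changes were 5.08 (SE 0.63, adjusted p = 1.80e-07), 6.21 (SE 0.63, adjusted p = 4.74e-10) and 5.66 (SE 0.63, adjusted p = 4.29e-09) at 30 min, 1 h and 3 h, by limma's moderated t with Benjamini-Hochberg adjustment over 17262 probe sets. The size of the fold depends on the pseudocount, because the mock signals are dim. It was 33.8, 74.2 and 50.7 at 30 min, 1 h and 3 h as fitted, 63.2, 160 and 86.1 with a pseudocount of 2% of the median signal, and 10.96, 20.8 and 19.2 with 50%. At 3 h the fold was 27.7 without mock replicate 1 and 92.6 without mock replicate 2, the array at 195.

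No array of AT1G76640 outside MJ in Col-0 exceeded the array's 40th percentile, on 42 arrays. With no detection calls used here, those 42 signals, 10.2 to 256 with a median of 31.0, are not known to lie above background. The probe set passed the filter on low signals, which asks for 2 arrays over the 40th percentile, on 7 arrays: the 6 MJ arrays and 1 of det2-1. In order of group means the 3 MJ groups came first, and the step from MJ at 30 min to the next group, det2-1 with BL at 3 h, was 3.43 on the log2 scale. Below it, no neighbouring groups were separated beyond the spread of their arrays. The 2 arrays of a group often differed widely at these low signals, by up to 13.2-fold and by 1.89-fold at the median over groups.

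CML38, the neighbouring calmodulin-like gene, passed the test under MJ at 1 h and 3 h. Under MJ it had 622 and 319 at 30 min, against 135 and 191 in mock. It had 716 and 505 under MJ at 1 h, against 138 and 116 in mock. At 3 h it had 1046 and 1152 under MJ, against 163 and 93.6 in mock. The MJ arrays lay above the mock arrays at all 3 times, which is weak evidence with 2 arrays a group and was not counted over all probe sets. The log2 change of 1.22 at 30 min (SE 0.48, adjusted p = 0.346) did not pass. The changes of 1.86 at 1 h (adjusted p = 0.0109) and 2.68 at 3 h (adjusted p = 8.88e-05) did, by limma. Over the alternative settings and arrays left out, they lay between 1.13 and 2.16 at 1 h and between 1.78 and 3.04 at 3 h. None of the 42 Col-0 arrays of CML38 outside MJ exceeded the array's 40th percentile. Those signals, 30.8 to 295, are not known to lie above background. The call at 1 h was lost when mock replicate 1 (adjusted p = 0.0531), mock replicate 2 (0.113) or MJ replicate 1 (0.175) was left out, and with deposited signals that were not rescaled (0.0523).

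ZAT10, the transcription factor, was already higher under MJ at the first sampling. Under MJ it had 2082 and 1041 at 30 min, against 401 and 283 in mock. At 1 h it had 3836 and 2293 under MJ, against 329 and 315 in mock. At 3 h it had 818 and 1260 under MJ, against 338 and 123 in mock. Groups did not overlap at any time, which is weak evidence with 2 arrays a group and was not counted over all probe sets. The log2 changes were 1.96 (adjusted p = 0.00140), 3.01 (adjusted p = 2.75e-07) and 2.02 (adjusted p = 0.000301). The call at 30 min was lost without mock replicate 2 (adjusted p = 0.0686), without MJ replicate 1 (0.187) and on the deposited scale (0.0556), and that at 3 h was lost without mock replicate 2 (0.0554).

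For the rises under MJ, the share of all tested probe sets called as risen was 1.4% at 30 min, 3.5% at 1 h and 3.87% at 3 h, against 2 of the 3 genes at 30 min and all 3 at 1 h and 3 h. The 3 genes were chosen with earlier results of these data known, and AT1G76640 would not have passed the filter on low signals without its MJ arrays. These counts therefore describe the genes and are no test against that share. Over the whole MJ course, the moderated F passed for AT1G76640 (adjusted p = 4.26e-15), ZAT10 (8.30e-10) and CML38 (7.06e-06), where 9.68% of probe sets passed. ZAT10 had its highest mean at 1 h and CML38 and AT1G76640 at 3 h, yet the change of the MJ response over the times passed for none of the genes. Its adjusted p was 0.742 for ZAT10, 0.726 for CML38 and 0.952 for AT1G76640, with 0.828% of probe sets called. On the MJ arrays at 30 min and at 1 h, replicate 1 was higher than replicate 2 for all 3 genes.

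**Figure D2:**
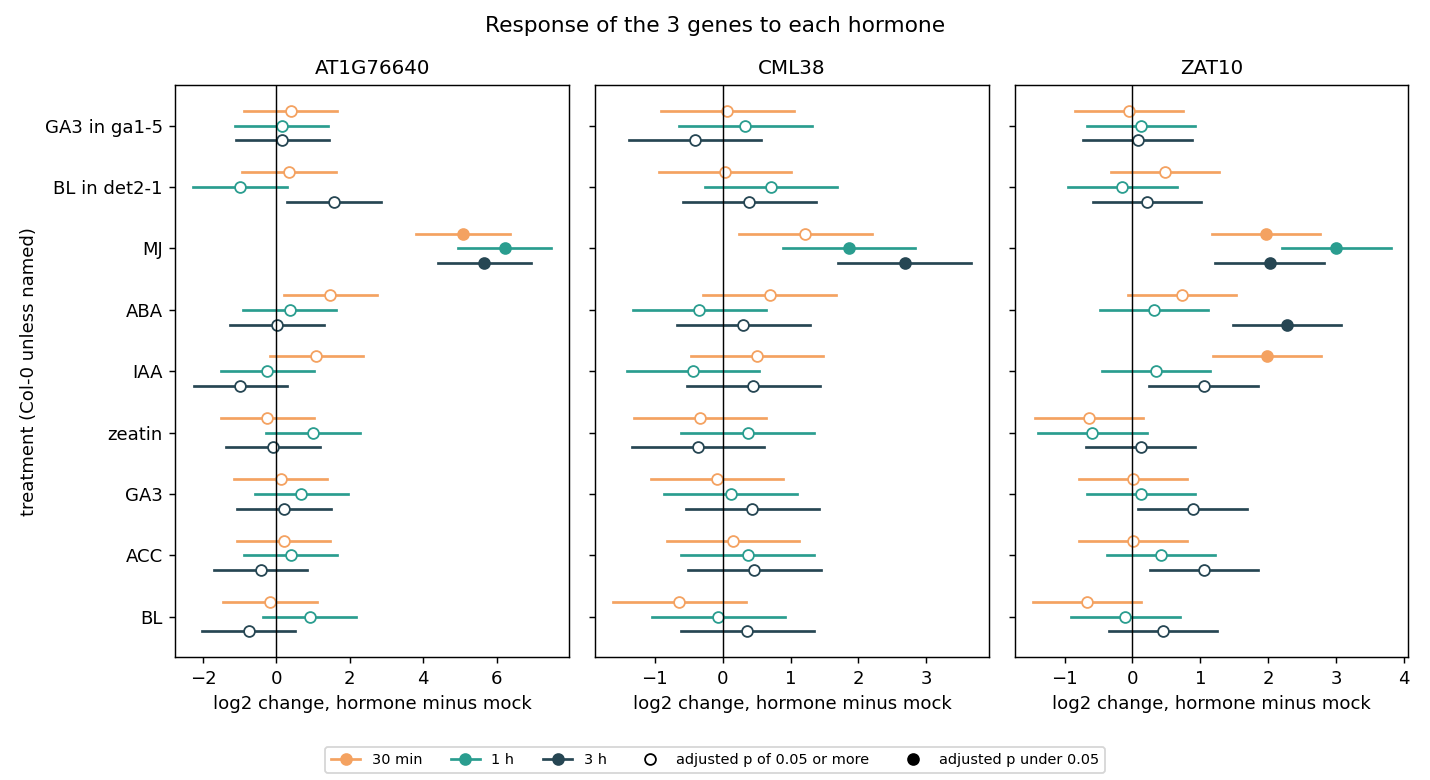
Log2 change of hormone minus mock for AT1G76640, CML38 and ZAT10 in the 27 comparisons, with 95% confidence intervals from the fit; filled points passed at an adjusted p under 0.05. Rows are treatments, with the mutants at the top, and colours are times. Filled points are confined to MJ for AT1G76640 and CML38, and also stand at ABA 3 h and IAA 30 min for ZAT10.

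ZAT10 alone of the 3 genes passed under a hormone other than MJ. With IAA at 30 min it had 1513 and 1476, against 401 and 283 in mock, a log2 change of 1.98 (SE 0.40, adjusted p = 0.00393). That was 3.95-fold, at a time when 0.475% of probe sets were called as risen. The 2 IAA arrays were nearly equal and lay far above both mock arrays, a separation that was not counted over all probe sets. By 1 h the arrays under IAA were 579 and 305, against 329 and 315 in mock, and overlapped (log2 change 0.34). At 3 h the log2 change was 1.05, with an adjusted p of 0.171, or 0.0496 with the replicate number as a block. The moderated F over the IAA course passed (adjusted p = 0.00135, with 3.05% of probe sets called), and the change of the response over the times did not (adjusted p = 0.585, with 0.504% called). The call at 30 min was lost without mock replicate 2 (adjusted p = 0.184), IAA replicate 1 (0.0937) or IAA replicate 2 (0.0549), the array with impossible intensities elsewhere, and on the deposited scale (0.157), where the call over the course was lost as well (0.105).

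Under ABA, ZAT10 passed at 3 h and not before. It had 595 and 598 with ABA at 30 min, against the mock values of that time given above, and its log2 change of 0.73 did not pass (adjusted p = 0.901). At 1 h it had 445 and 386 with ABA, a log2 change of 0.32 (adjusted p = 0.925). At 3 h it had 1456 and 1023 with ABA, against 338 and 123 in mock. That change of 2.27 (SE 0.40, adjusted p = 1.46e-05) was 4.83-fold, at a time when 10.1% of probe sets were called as risen. The response changed over the times by the moderated F (adjusted p = 0.0306), as did 10.7% of probe sets. This call was lost on the deposited scale (adjusted p = 0.406), with only the arrays of the sets compared (0.0652), without mock at 1 h replicate 1 (0.0563) or 2 (0.0509), without ABA at 1 h replicate 2 (0.0637), without mock at 3 h replicate 2 (0.371) and without ABA at 3 h replicate 1 (0.171). Set against 30 min alone, the response at 3 h was larger by 1.54 on the log2 scale, with an adjusted p of 0.0617, or 0.0172 with the replicate number as a block, where 12.5% of probe sets passed without the block. CML38 and AT1G76640 did not pass under ABA at any time, with log2 changes between -0.34 and 1.47. AT1G76640 had signals of 181 and 241 with ABA at 30 min, against 24.8 and 59.4 in mock, with an adjusted p of 0.698. Signals this low are not known to lie above background.

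None of the 3 genes passed under zeatin, GA3, ACC or BL in Col-0 at any time. The share of probe sets called in either direction at 30 min, 1 h and 3 h was 0.168%, 0.434% and 1.27% for zeatin. For GA3 it was 0%, 0% and 0.0406%, and for ACC 0.0406%, 0.191% and 0.817%. For BL it was 0.133%, 0.973% and 1.55%. The nearest values for ZAT10 were its log2 changes of 1.06 with ACC at 3 h (adjusted p = 0.343) and 0.89 with GA3 at 3 h (adjusted p = 0.984). Both stand against the same mock arrays of 338 and 123. Across the remaining IAA and ABA comparisons, 0.817% of probe sets passed with IAA at 1 h and 3.58% at 3 h, and 0.313% with ABA at 30 min and 2.6% at 1 h.

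Set directly against each other hormone at the same time, a comparison added after the values had been seen, MJ gave the higher AT1G76640 signal in 18 of 18 tests. The probe set would not have passed the filter on low signals without its MJ arrays, so these tests describe the gene and are no separate support. The other hormones' arrays of AT1G76640 are dim, so the size of these differences depends on the pseudocount. Against IAA at 3 h, for example, the log2 difference was 6.64 as fitted, 8.07 with the smaller pseudocount and 4.63 with the larger. For CML38 11 of 18 tests passed, including every test at 3 h, where the differences lay between 2.21 against ACC and 3.04 against zeatin, and the 7 that did not pass had differences of 0.53 to 1.55. For ZAT10 12 of 18 passed, and of the other 6 tests 4 differences were above 0 and 2 below. Over the 3 genes 41 of 54 tests passed, and 48 with the replicate block. Replicate numbers were not taken to pair MJ and mock arrays, so the second count is no paired test. Calls lost without 1 array were those of CML38 against BL at 30 min and against IAA, GA3, ABA and BL at 1 h, and of ZAT10 against GA3 and ACC at 30 min and BL at 3 h. At the matched dose of 10 µM, ZAT10 under MJ and under ABA at 3 h differed by -0.25 (SE 0.40, adjusted p = 0.704), and at 1 h by 2.69 (adjusted p = 1.76e-06). Against IAA, whose dose of 1 µM differed, ZAT10 under MJ at 30 min was -0.02 (SE 0.40, adjusted p = 0.995). The 95% intervals of these differences ran from -1.05 to 0.55 against ABA at 3 h and from -0.82 to 0.78 against IAA at 30 min, so they do not show equal levels. Across the 18 comparisons, the share of probe sets called higher under MJ at 30 min, 1 h and 3 h was 1.43%, 3.85% and 5.47% against IAA, and 1.63%, 3.61% and 4.62% against zeatin. It was 1.36%, 3.04% and 3.91% against GA3, and 1.27%, 3.85% and 15.4% against ABA. It was 1.23%, 3.06% and 4.53% against ACC, and 1.29%, 3.15% and 5.35% against BL.

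Among mock seedlings, CML38 was higher in both mutants than in Col-0. In ga1-5 mock seedlings it had 624 and 561 at 30 min, 411 and 449 at 1 h, and 699 and 357 at 3 h. In Col-0 mock seedlings the 6 arrays lay between 93.6 and 191, below every ga1-5 array and under the 40th percentile of their own signals. How many of all probe sets separate in this way was not counted. The mean log2 difference over the times was 1.55 (SE 0.28, adjusted p = 1.36e-05), a 2.92-fold higher signal, and the differences of 1.58, 1.42 and 1.63 at 30 min, 1 h and 3 h each passed (adjusted p = 0.0149, 0.0279 and 0.0114). The call at 30 min was lost without Col-0 replicate 1 (adjusted p = 0.112), ga1-5 replicate 1 (0.0920) or ga1-5 replicate 2 (0.0556), that at 3 h without Col-0 replicate 2 (0.132) or ga1-5 replicate 1 (0.194), and that at 1 h without any 1 of its 4 arrays (0.0746 to 0.143) and under quantile normalization (0.0639). The call on the mean held in each of the 12 settings and without each of 12 arrays, at 1.90-fold with the larger pseudocount.

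In det2-1 mock seedlings CML38 had 669 and 404 at 30 min, 175 and 360 at 1 h, and 265 and 194 at 3 h. The lowest of these arrays overlapped the range of Col-0. The mean log2 difference was 0.95 (SE 0.28, adjusted p = 0.00920), and no single time passed. At 30 min the difference was 1.42 (adjusted p = 0.0568), and it passed with the replicate block (0.0253), the 60th percentile filter (0.0490) and the larger pseudocount (0.0473). It also passed on the deposited scale, where the median over all tested probe sets was itself 1.21. ZAT10 was also higher in det2-1 than in Col-0 as a mean over the times, by 0.61 (SE 0.23, adjusted p = 0.0414). Its arrays lay between 355 and 769 in det2-1 mock, against 123 to 401 in Col-0 mock. That call was lost under quantile normalization (adjusted p = 0.0534), with the larger pseudocount (0.0566), with no filter on low signals (0.0539) and with only the sets compared (0.0573). It was also lost without Col-0 replicate 2 at 30 min, either Col-0 replicate at 1 h, Col-0 replicate 2 at 3 h, either det2-1 replicate at 30 min, or det2-1 replicate 1 at 1 h or at 3 h (adjusted p 0.0520 to 0.199). AT1G76640 did not pass in either mutant, with mean differences of -0.32 in ga1-5 (adjusted p = 0.515) and 0.63 in det2-1 (adjusted p = 0.202), the second of which passed on the deposited scale (0.00314). At 1 h it had 183 and 311 in det2-1 mock, against 26.99 and 25.7 in Col-0 mock, a log2 difference of 1.87 (adjusted p = 0.0611). That difference passed with the replicate block (0.0276) and under quantile normalization (0.0456). It also passed on the deposited scale (0.00392), where the median over all tested probe sets was 0.82.

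The mutants differed from Col-0 widely, so these calls are set against a high background. Of all tested probe sets, 22.5% were called higher in ga1-5 and 13.3% in det2-1 as means over the times. At 30 min, 1 h and 3 h, 10.2%, 12.2% and 9.86% were called higher in ga1-5. In det2-1, 3.81%, 2.69% and 2.93% were called higher at those times. The moderated F over the times passed for CML38 in ga1-5 (adjusted p = 0.000239, with 34.6% of probe sets called) and missed in det2-1 (adjusted p = 0.0539, with 17.8%). The deposited signals of the mutant arrays had trimmed means of 1827 to 2970, against 865 to 1164 in Col-0, before they were scaled to a common value. Without that scaling the median log2 difference over all tested probe sets was 1.23 in ga1-5 and 1.05 in det2-1, and that of CML38 was 2.68 and 1.86. The summed scaled signal of the 7 photosynthesis markers was 74314 to 111027 in ga1-5 and 70523 to 135188 in det2-1, against 112142 to 232866 in Col-0. The summed signal of the 3 root markers (PYK10, EXPA7 and EXPA18) was 8247 to 18330 in ga1-5 and 10413 to 27227 in det2-1, against 19976 to 45482 in Col-0. Their part in the CML38 result was not tested.

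**Figure D3:**
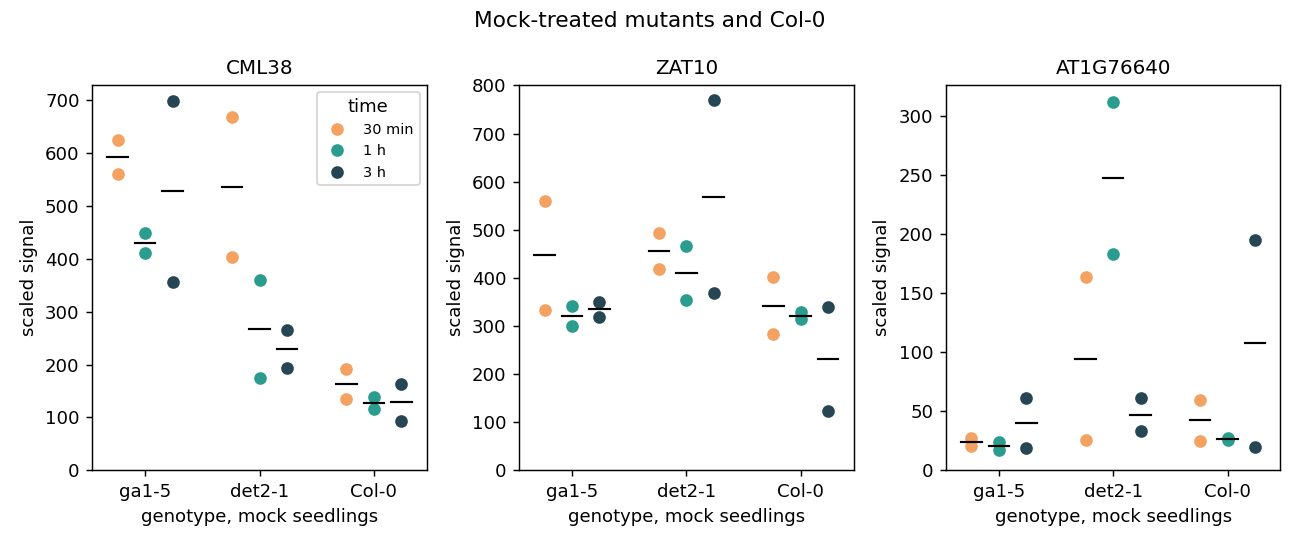
Scaled signal of CML38, ZAT10 and AT1G76640 in mock seedlings of ga1-5, det2-1 and Col-0, with points for arrays, bars for means of 2 arrays and colours for times. All 6 ga1-5 arrays of CML38 lie at 357 or more, above the highest Col-0 array at 191.

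Under GA3 in ga1-5 and BL in det2-1 none of the 3 genes passed by limma at any time, with 0.00579%, 0.0463% and 0.145% of probe sets called for GA3 and 0.029%, 0.377% and 4.47% for BL at 30 min, 1 h and 3 h. AT1G76640 had 193 and 307 in det2-1 with BL at 3 h, against 32.8 to 61.3 in mock (log2 change 1.57, adjusted p = 0.194). These arrays did not overlap, which is weak evidence with 2 arrays a group and was not counted over all probe sets. The response did not pass as different between mutant and Col-0 in any of 18 tests by limma, 3 of which had an unadjusted p under 0.05. The share of probe sets called there for BL was 0.0579%, 0.029% and 0.0521% at 30 min, 1 h and 3 h, and for GA3 0%, 0.00579% and 0%. Mock seedlings did not pass as different between times in any of 27 tests by limma, 2 of which had an unadjusted p under 0.05, with 0%, 0.00579%, 0.0116%, 0.0174%, 0.0232%, 0.0348% or 0.0406% of probe sets called.

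The genes whose group means followed each of the 3 most closely were taken over the 36 groups from 9613 tested probe sets that name 1 gene. Groups of one genotype and time share a set, and these correlations are descriptions. The genes were picked on the same group means, so their MJ and mutant changes given here follow largely from that choice and are no separate evidence. For AT1G76640 the genes were AT5G05600 (Pearson r = 0.938), AT3G62010 (0.922), AT1G14130 (0.900), AT3G51450 (0.898) and OPCL1 (0.894), which encodes a CoA ligase of jasmonate biosynthesis. Each of these 5 rose under MJ at all 3 times, by 1.06 to 2.88 on the log2 scale at 30 min, 1.77 to 4.24 at 1 h and 1.32 to 4.04 at 3 h. For CML38 the highest were AT5G19100 (r = 0.821) and AT5G35940 (0.805). AT5G19100 was higher in ga1-5 than in Col-0 by 2.44 and in det2-1 by 1.72, and AT5G35940 by 1.38 and 1.58. AT5G65380 (0.801), ALDH10A8 (0.782) and AT2G46520 (0.776) followed. For ZAT10 the highest was AR781 (r = 0.792), which rose under MJ by 2.11, 2.69 and 2.34 at the 3 times. AT5G14700 (0.779), AT4G08170 (0.737), AT1G69360 (0.736) and PUB43 (0.735) followed. AT5G14700 rose under MJ by 2.78, 3.20 and 1.23 on the log2 scale at the 3 times.

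The genes themselves differed in how alike they were. AT1G76640 and ZAT10 correlated at r = 0.722 over 36 groups and at 0.372 over the 33 groups without MJ. For AT1G76640 and CML38 the values were 0.4999 and 0.126. Over the 24 Col-0 groups alone, AT1G76640 and CML38 correlated at 0.896, and at 0.533 without the MJ groups. ZAT10 and CML38 correlated at 0.476 over 36 groups and at 0.287 without MJ, and in Col-0 at 0.735 and 0.548. Each of these correlations was lower without the MJ groups, where the AT1G76640 signals are dim. By rank (Spearman), the values over 36 groups were 0.461 for AT1G76640 and ZAT10 and 0.298 for AT1G76640 and CML38, both lower than r. For ZAT10 and CML38 the rank value was 0.537, higher than r.

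**Figure D4:**
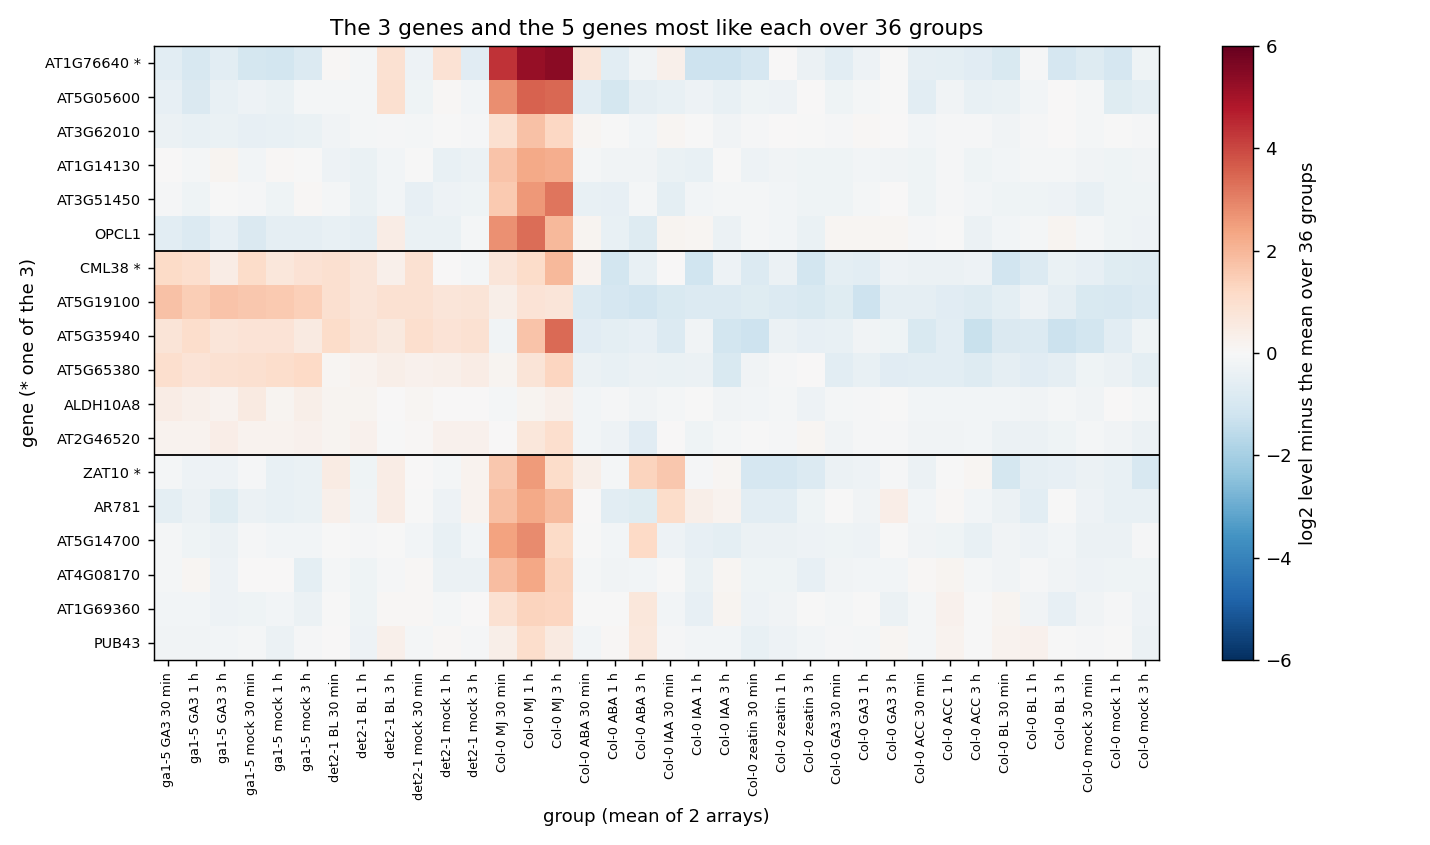
Log2 level of each of the 3 genes (marked by an asterisk) and the 5 genes most like it, minus that gene's mean over 36 groups, in each group. Rows are genes and columns are groups, with the mutants at the left and Col-0 mock at the right. The MJ columns stand out in red for AT1G76640 and ZAT10, and CML38 is also raised in the mutants.

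Other genes of the same kinds were looked up in lists of 65 names of calmodulin and calmodulin-like genes, 26 of zinc finger genes of the ZAT and AZF group and 101 of other rapidly induced stress genes. The lists include the 3 genes and hold synonyms, so they cover fewer genes than names. Most of these names match no probe set in the annotation used, in which 8730 of the 22810 probe sets are unnamed. The array may still measure such genes. They could not be looked up, so the results below say nothing about them. Beside the 3 genes, 6 of the first list were named and 5 tested, none of the zinc finger genes was named, and 7 of the last were named and tested. Under MJ none of these 5 or 7 genes passed at any time, where 1.8%, 5.53% and 7.84% of probe sets passed in either direction at 30 min, 1 h and 3 h. Under ABA at 3 h, where 26.9% of probe sets passed, 3 of the 5 calmodulin-like genes did. CML23 rose 5.91-fold (log2 change 2.56, adjusted p = 1.55e-05), while CML42 fell by 1.55 on the log2 scale (adjusted p = 1.25e-06) and CML43 fell by 0.76 (adjusted p = 0.0335). Of the 7 other stress genes, WRKY6, a transcription factor of senescence and defence, rose by 1.29 under ABA at 3 h (adjusted p = 0.000999) and WRKY22 fell by 0.80 (adjusted p = 0.0236). PUB24 rose by 1.23 under ABA at 30 min (adjusted p = 0.0208). Under IAA at 30 min, PUB23, a ubiquitin ligase of the plant U-box family, rose 2.89-fold (adjusted p = 0.000119), at the time at which ZAT10 rose under IAA. Genes named next were chosen after their values were seen. CML42 rose by 0.88 under BL at 3 h in det2-1 (adjusted p = 0.0171), where 4.47% of probe sets changed. In ga1-5 mock seedlings, 2 of the 5 calmodulin-like genes were called higher than in Col-0 as means over the times, CML23 by 0.74 (adjusted p = 0.0187) and CML43 by 0.43 (adjusted p = 0.0243), where 22.5% of probe sets were called higher. Of the 7 stress genes, PUB22, GSTU25, WRKY6 and WRKY22 were higher there by 0.45 to 1.08, and WRKY53 was lower, with a difference of -0.81 (adjusted p = 0.00352), where 19.9% of probe sets were called lower. The median log2 difference was 0.42 for the 5 genes and 0.45 for the 7, and 0.05 for all tested probe sets. In det2-1 mock, 0 of the 5 passed, and of the 7 only WRKY22 did, higher by 0.61 (adjusted p = 0.00264), where 13.3% of probe sets were called higher.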

How the data were processed

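Per the submitters' processing notes, the authors made 1 intensity per probe set and array with MAS5, and these deposited values are linear signals. Any scaling by the authors is not stated. Most arrays of one set and replicate number had nearly equal trimmed means. In ga1-5 at 30 min, replicate 1 had 2648 (mock) and 2646 (GA3), and replicate 2 had 2227 in both. An exception was ACC at 3 h replicate 1 in Col-0 (1156, against 1048 in mock). The deposited brightness thus went with set and replicate number, and its origin was not tested. Values were scaled here to a common 2% trimmed mean (1156), because the arrays differed by up to 157%, and log2(signal + 54.6) was fitted with limma 3.58.1 in R 4.3.3, with 1 mean per group over 72 arrays, 36 residual degrees of freedom and an intensity trend. A probe set was tested if it exceeded the array's 40th percentile on 2 arrays or more (17262 of 22810). Adjusted p-values are Benjamini-Hochberg over all tested probe sets, with a threshold of 0.05. Intensities of the Col-0 IAA 30 min replicate 2 array in 2 stretches (1973 probe sets) were treated as missing. The fit was tested on simulated data.

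In the platform annotation, 13513 probe sets name 1 gene and 503 several, and 8730 are unnamed here. Named genes were the 3 members, the 5 genes most like each and up to 6 called genes per list. One list name, CP1, matched a cysteine proteinase gene and was left out. Members and lists were chosen with earlier results of these data known. Replicate numbers come from the labels. They were taken to pair treated and mock arrays where deviations from group means correlated over 0.1 at all 3 times, as for ABA, IAA (lowest 0.269), GA3 in Col-0, BL in det2-1 and zeatin, and not for MJ (lowest 0.0700), GA3 in ga1-5, BL in Col-0 or ACC. Alternatives were other scalings, pseudocounts and filters, the replicate block, fits of separate sets, and each array left out. The precision is limited by 2 arrays per group. Promoter sequences were not analysed here.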

Additional observations from a re-analysis of the deposited data

Results flagged for a closer look

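The ZAT10 response to ABA in Col-0 differed between the times by limma's moderated F (adjusted p = 0.0306). Its log2 changes were 0.73 at 30 min, 0.32 at 1 h and 2.27 at 3 h, and each time is a set of its own, so time and set cannot be told apart. Groups of 2 arrays were too small for a test of single outlying arrays.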

How the results depend on the processing

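Over 12 alternative settings, 3888 values of the 3 genes were recomputed: 3825 kept their side of the threshold, 18 lost a call and 45 gained one. With each array left out, 2180 of 2232 kept it, 46 lost a call and 6 gained one. A value that passed in neither fit was counted as kept whatever its sign. No called value changed sign. Tests of the response at 1 h or 3 h against 30 min passed 0 times, but 1 time under quantile normalization, with array medians subtracted and with the replicate block, and 0 to 1 times with an array left out. The change over the times passed 1 time and 0 times on the deposited scale and in fits of only the sets compared, with 0 to 1 with an array left out. In the mutants, calls at single times numbered 3, with 6 under the replicate block and 12 on the deposited scale. The larger pseudocount and the 60th percentile filter each gained the call of CML38 in det2-1 at 30 min. Quantile normalization lost that of CML38 in ga1-5 at 1 h and gained that of AT1G76640 in det2-1 at 1 h. Calls on the mean numbered 3, and 5 on the deposited scale. The mean call of ZAT10 in det2-1 was lost under quantile normalization, with the larger pseudocount, with no filter on low signals and with only the sets compared. Calls over the times numbered 1, and 5 on the deposited scale, 2 with a filter at the 60th percentile and 3 with the replicate block. Before rescaling, deposited signals were brighter in the mutants than in Col-0, with median differences over all tested probe sets of 1.23 in ga1-5 and 1.05 in det2-1. The counts of mutant calls on the deposited scale include that shift. The cause of the other shifts was not tested. The replicate block was fitted in every set and for all comparisons, also where replicate numbers were not taken to pair, as for MJ. It changed the 2 calls given above for ZAT10 (IAA at 3 h, ABA at 3 h against 30 min) and no other call of hormone against mock. In MJ against other hormones it gained 7 calls, of ZAT10 against IAA, GA3 and ACC at 3 h and ABA at 30 min, and of CML38 against zeatin at 30 min and 1 h and ACC at 1 h. The deposited scale lost 5 there.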
